A study of Mus musculus with 10 samples.

Results

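The genes described here carry symbols of mitochondrial ribosomal proteins, and 75 of the 39017 genes in the count table were taken as members. They were chosen by symbol alone, as Mrpl or Mrps followed by a number and at most 1 further letter. The symbols name the large subunit (Mrpl) and the small subunit (Mrps). The rule does not tell whether a product is part of the ribosome or lies in the subunit named. Pseudogene symbols were left out, and a total of at least 100 counts over the 10 libraries was required. Of 76 matching symbols, Mrpl53, which had 2 counts in all 10 libraries, did not reach this total. The 75 members comprised 46 Mrpl and 29 Mrps genes on 17 chromosomes, all annotated as protein coding. Their totals ran from 1937 counts for Mrps36 to 32696 counts for Mrpl24, and all 75 were tested among 16216 genes.

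The mitochondrial ribosome sits in the mitochondrial matrix and translates the few messenger RNAs encoded by mitochondrial DNA, all of which give subunits of the respiratory chain and ATP synthase. Its ribosomal RNAs come from mitochondrial DNA, whereas its proteins are encoded in the nucleus, made in the cytosol and imported. Some of these proteins descend from bacterial ribosomal proteins and others are particular to mitochondria.

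Expression was measured by RNA sequencing in 10 lung tumours of male C57BL/6 mice, 5 KP and 5 KPG1, and the comparison asks which genes change when Slc2a1, which encodes the glucose transporter Glut1, is targeted in the tumour. KP mice develop lung adenocarcinoma when Cre recombinase acts on engineered alleles that both groups carry, and KPG1 mice also carry homozygous floxed Slc2a1. Cre was expressed from the promoter of surfactant protein C (SPC) in an adenovirus given into the trachea, which limits tumour initiation to SPC-expressing cells, and tumours were taken 18 weeks and 6 days later. Each library came from the cells left after CD45-positive leukocytes were removed with magnetic beads from dissociated tumour tissue. For the controls the labels give both a heterozygous floxed Slc2a1 genotype and a wild type description, so KP means the control group of the labels. Nothing in the labels ties tumours to animals, so p-values measure the spread between these samples.

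Depth was 32427029 to 49534284 counts per library, and the members took 0.178% to 0.228% of them in KP and 0.199% to 0.208% in KPG1. Slc2a1 measured 78.8, 127, 123, 109 and 71.7 CPM (counts scaled to a common library size) in KP 1 to KP 5. It measured 47.3, 66.8, 40.8, 51.3 and 44.3 CPM in KPG1 1 to KPG1 5, so the groups did not overlap and transcript remained in every KPG1 library. The log2 fold change was -1.01 (SE 0.20) with a limma adjusted p of 0.0675, and the two-sided exact permutation test gave 0.00794, its minimum for 5 against 5 libraries. The alveolar type 2 marker Sftpc, the gene of SPC, was at 5370 to 19893 CPM in KP and 17478 to 40180 CPM in KPG1. The leukocyte gene Ptprc, which encodes CD45, had 211 to 484 counts in a library. The lymphocyte genes Cd3e and Cd8a reached at most 8 and 2 counts, whereas the myeloid genes Cd68, Csf1r and Itgam had 346 to 1628, 266 to 784 and 88 to 687 counts. Lyz2, which alveolar type 2 cells also express, made up most of the summed leukocyte level of 477 to 3627 CPM in KP and 2064 to 6222 CPM in KPG1, with 414 to 3538 and 2023 to 6173 CPM. S100a8 and Itgam were lower in KPG1 at an unadjusted p under 0.05 (log2 fold changes of -1.84 and -1.04, limma adjusted p 0.205 and 0.263), and DESeq2 called 2 of 8 tested leukocyte genes lower. KP 5 stood apart in the summed level of 20 proliferation genes, at 208 CPM beside 594 to 793 CPM in the other KP libraries. In KPG1 this sum was 591 to 963 CPM. The sum does not describe every gene on the list, as Pcna ran only from 94.2 to 129 CPM over the KP libraries. The summed endothelial level of KP 5 was 305 CPM, beside 606 to 1048 CPM in the other KP libraries. KP 1 had the lowest summed alveolar type 2 level, 18756 CPM beside 28282 to 63423 CPM in the other KP libraries and 48406 to 88312 CPM in KPG1, and the lowest leukocyte sum.

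Promoter sequence was read from RefSeq windows of 250 bases before to 50 bases after the start on GRCm38.p6, which 66 of the 75 members had. Those of 3 members are shown, for Mrpl44 (the member with no overlap between groups), Mrpl32 (the largest positive difference) and Mrpl3 (lower in KPG1 at an unadjusted p under 0.05). Mrpl44 lies at chr1:79775768-79776067 on the plus strand, Mrpl32 at chr13:14612988-14613287 on the minus strand and Mrpl3 at chr9:105053018-105053317 on the plus strand. Capitals mark the letters of 3 transcription factor motifs known from promoters of nuclear genes for mitochondrial proteins, found on either strand: NRF1 (GCGCATGC), ETS factors such as the GABP complex (CCGGAAGT) and YY1 (AAGATGGC).
Mrpl44: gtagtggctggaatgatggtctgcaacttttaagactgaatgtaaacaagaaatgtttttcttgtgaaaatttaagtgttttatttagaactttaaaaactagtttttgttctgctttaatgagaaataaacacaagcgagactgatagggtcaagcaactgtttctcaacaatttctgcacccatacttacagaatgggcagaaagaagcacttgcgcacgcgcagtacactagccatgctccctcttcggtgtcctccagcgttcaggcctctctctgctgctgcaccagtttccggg
Mrpl32: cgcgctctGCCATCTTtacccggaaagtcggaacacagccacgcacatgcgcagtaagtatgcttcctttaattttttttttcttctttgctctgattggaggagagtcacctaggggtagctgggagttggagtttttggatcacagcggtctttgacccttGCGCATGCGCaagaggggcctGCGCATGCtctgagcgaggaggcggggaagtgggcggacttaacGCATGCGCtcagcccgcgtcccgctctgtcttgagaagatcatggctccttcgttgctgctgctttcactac
Mrpl3: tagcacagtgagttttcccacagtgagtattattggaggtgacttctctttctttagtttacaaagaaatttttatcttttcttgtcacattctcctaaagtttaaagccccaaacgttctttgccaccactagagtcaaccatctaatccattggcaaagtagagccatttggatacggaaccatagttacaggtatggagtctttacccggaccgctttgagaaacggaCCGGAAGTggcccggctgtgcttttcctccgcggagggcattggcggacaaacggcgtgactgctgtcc
The Mrpl32 window held 4 marked stretches, the Mrpl3 window held 1 and the Mrpl44 window held 0. The Mrpl32 window also holds the annotated start of Psma2, a gene on the other strand, so its marked letters are not assigned to Mrpl32 alone. Mrpl18 and Mrps9, also at an unadjusted p under 0.05 in limma but not shown, had windows with 1 and 0 marked stretches. Among the 66 members with a window, NRF1 letters were in 8 (12.1%), ETS letters in 11 (16.7%) and YY1 letters in 12 (18.2%). The same letters were in 2.80%, 4.00% and 2.88% of all 27025 promoter windows of this length. At least 1 of the 3 was found in 28 members (42.4%) and in 9.15% of all windows. The SP1 letters GGGCGG were in 33 of the 66 members and 35.9% of all windows, the NFY letters CCAAT in 39.4% and 37.9%, and the E-box CACGTG in 7.58% and 7.24%. Median GC content was 58.0% for members and 52.7% for all windows. All windows include genes that were not tested here, and they were not matched to the members for level or GC content. These matches describe letters only. Overlapping matches form 1 marked stretch, and a window counts once for each motif it holds.

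No mitochondrial ribosomal protein gene passed the threshold for a difference between KPG1 and KP. In the limma fit across all genes, 0 of 75 members were higher and 0 were lower at an adjusted p under 0.05, where 0.0617% and 0.111% of all 16216 genes were called (0.173% in either direction). edgeR also called 0 and 0 members, with backgrounds of 0.0678% and 0.179%, and DESeq2 called 1 member higher (Mrpl44) and 0 lower, with backgrounds of 0.771% and 2.61%. At an unadjusted p under 0.05, 4 members were higher and 1 was lower in KPG1, or 6.67% of the members, against 11.6% of all genes (5.26% higher and 6.31% lower). Leaving out single libraries gave 1 to 4 members higher and 0 to 1 lower, with the fewest without KPG1 2 (1 higher and 0 lower). Fitted values were higher in KPG1 for 41 members and lower for 34, and over all genes 52.7% were higher and 47.3% lower. This majority turned without KP 5 (32 members higher), KP 1 (33), KP 2 or KPG1 1 (37 each) and with DESeq2 (36), and it rose to 50 without KP 4. The smallest limma adjusted p among the members was 0.239, for Mrpl44.

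The differences were small. The median log2 fold change of the members was 0.02, with quartiles of -0.06 and 0.12 and extremes of -0.38 for Mrpl33 and 0.42 for Mrpl32. Over all genes tested the median was 0.02 and the quartiles were -0.20 and 0.21. The median SE was 0.15 for the members and 0.22 for all genes. The 95% interval of the fold change lay within 1.5-fold in both directions for 66 members (88.0%) and within 2-fold for all 75, where 36.6% and 67.2% of all genes met these bounds. The 9 members whose intervals reached past 1.5-fold were Mrpl4, Mrpl18, Mrpl23, Mrpl32, Mrpl33, Mrpl34, Mrpl44, Mrpl48 and Mrps6. These intervals cover single genes and were not adjusted for their number. The members had higher levels than the typical gene tested, and the shares of all genes were not matched for level.

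**Figure D1:**
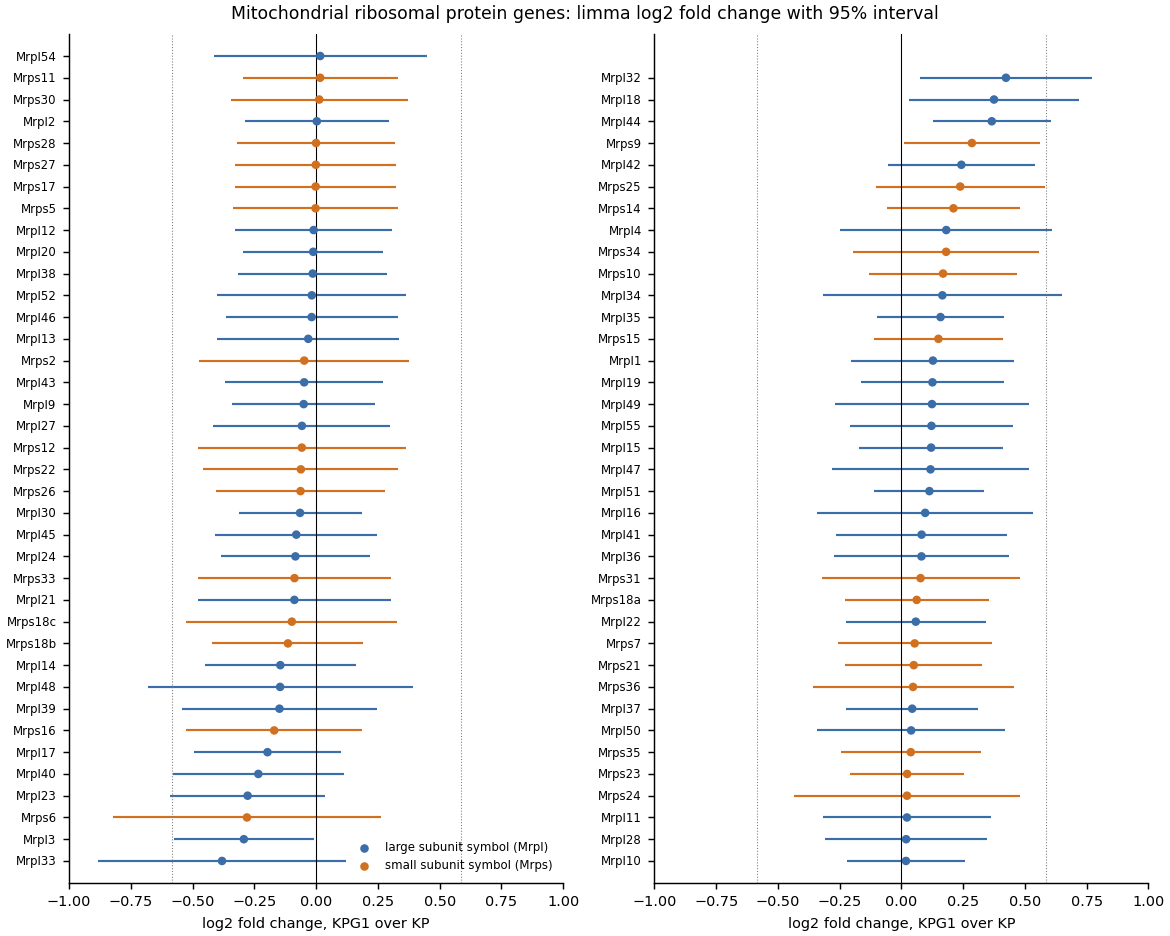
Log2 fold change of each of the 75 members (x axis, KPG1 over KP; points) with its 95% limma interval (lines), ordered by size and split over 2 panels, with large subunit symbols in blue and small subunit symbols in orange; dotted lines mark 1.5-fold. The points lie between -0.38 and 0.42, and 5 intervals leave out 0.

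Mrpl44 encodes a protein particular to the mitochondrial large subunit that resembles RNase III and lies near the exit of the peptide tunnel. Its level was 4.62, 4.48, 4.62, 4.44 and 4.67 log2 CPM in KP 1 to KP 5 and 4.82, 5.00, 4.86, 5.09 and 4.91 log2 CPM in KPG1 1 to KPG1 5. Every KPG1 library lay above every KP library, which held for 1 of 75 members, while 0 members had every KPG1 library below. Among all genes 1.05% and 1.76% showed no overlap in these directions. Its log2 fold change of 0.37 had an SE of 0.11, a 95% interval of 0.13 to 0.60 and a limma adjusted p of 0.239. DESeq2 gave 0.36 with an adjusted p of 0.0152, and over all alternatives the adjusted p ran from 0.0152 to 0.475, with 0.105 in limma without KP 5. Mrpl44 (chromosome 1, 79776018 to 79781445, mm10) overlaps Wdfy1, which starts 125 bases away on the opposite strand, and Wdfy1 had a log2 fold change of -0.04 (SE 0.19).

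Mrpl32 encodes a large subunit protein with a bacterial counterpart that is processed by a mitochondrial protease before the subunit is assembled. It was at 5.93, 5.45, 5.40, 5.16 and 5.27 log2 CPM in KP 1 to KP 5 and at 5.54, 6.00, 5.83, 5.96 and 5.99 log2 CPM in KPG1 1 to KPG1 5. KP 1 lay among the KPG1 libraries, and the other KP libraries lay below all of them. The group means differed by a log2 fold change of 0.42 (limma adjusted p 0.342, SE 0.16). Mrpl32 (chromosome 13, 14608184 to 14613165) starts 75 bases from Psma2, a proteasome subunit gene on the other strand, which had a log2 fold change of -0.05 (SE 0.14).

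Mrpl18 encodes a protein of the central protuberance of the large subunit, the counterpart of a bacterial protein that binds 5S ribosomal RNA. It was at 4.28, 4.57, 4.94, 5.02 and 4.96 log2 CPM in KP 1 to KP 5 and at 5.27, 5.20, 5.10, 5.15 and 4.95 log2 CPM in KPG1 1 to KPG1 5. KP 1 and KP 2 were low, and KPG1 5 lay within the range of the other KP libraries. In the fit across all genes Mrpl18 had a log2 fold change of 0.37 (limma adjusted p 0.388, SE 0.16). Mrpl18 (chromosome 17, 12911349 to 12916345) overlaps the chaperonin gene Tcp1 on the opposite strand, which had a log2 fold change of 0.04 (SE 0.12).

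Mrps9 encodes a small subunit protein whose bacterial counterpart reaches towards the transfer RNA in the decoding region. It was at 5.00, 4.63, 4.58, 4.44 and 4.79 log2 CPM in KP 1 to KP 5 and at 4.93, 4.97, 5.11, 4.93 and 4.93 log2 CPM in KPG1 1 to KPG1 5. KP 1 lay among the KPG1 libraries and the other KP libraries lay below them. With an SE of 0.13, its log2 fold change was 0.29 (limma adjusted p 0.418). Mrps9 spans chromosome 1, 42851233 to 42905683.

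Among the members at an unadjusted p under 0.05, Mrpl3 alone was lower in KPG1. It encodes the counterpart of a bacterial protein that reaches towards the peptidyl transferase centre. It was at 5.11, 4.81, 5.00, 5.15 and 4.95 log2 CPM in KP 1 to KP 5 and at 4.42, 4.67, 4.73, 4.85 and 4.93 log2 CPM in KPG1 1 to KPG1 5. KPG1 4 and KPG1 5 lay above KP 2, the lowest KP library, so the groups overlapped. Mrpl3 had a log2 fold change of -0.29 (limma adjusted p 0.417, SE 0.13). Mrpl3 (chromosome 9, 105053239 to 105079888) overlaps Gm38077 on the same strand and Gm47106 on the opposite strand.

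A few members were followed whatever their difference. Mrpl12, a stalk protein that also binds the mitochondrial RNA polymerase, had a log2 fold change of -0.01 (SE 0.14), and Mrps12, a protein of the decoding centre, had -0.06 (SE 0.19). Both changed sign after a trend with length and GC content was removed and without single libraries, and Mrpl12 also with library totals in place of TMM factors, within a range of -0.09 to 0.08 for Mrpl12 and -0.19 to 0.05 for Mrps12. The Mrps18 genes are paralogues that descend from a single bacterial gene, and the product of Mrps18a lies in the large subunit. Their log2 fold changes were 0.06 (SE 0.13) for Mrps18a, -0.11 (SE 0.14) for Mrps18b and -0.10 (SE 0.19) for Mrps18c, and those of Mrps18a and Mrps18c changed sign without single libraries. Mrps18b ran from -0.19 without KP 1 to -0.04 without KP 4. Mrps18b has a pseudogene copy, Gm13552, with 99.8% identity over 417 bases, so its count is uncertain.

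**Figure D2:**
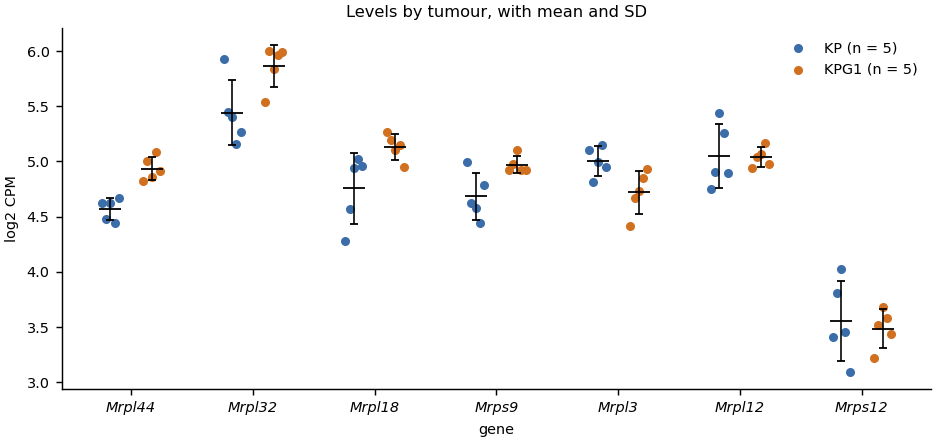
Level (y axis, log2 CPM) of 7 members (x axis) in each KP tumour (blue) and KPG1 tumour (orange), with the mean and SD of each group (black, n = 5). The groups are separate for Mrpl44 alone among these 7, and for Mrpl12 and Mrps12 the KPG1 libraries lie within the KP range.

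Of 30 large subunit members with a bacterial counterpart, 17 were fitted higher and 13 lower, with a median log2 fold change of 0.02. Of 18 tested members of the large subunit that are particular to mitochondria, 10 were fitted higher and 8 lower (median 0.01). The 17 small subunit members with a bacterial counterpart divided into 8 higher and 9 lower (median -0.00), and the 10 particular to mitochondria into 6 higher and 4 lower (median 0.03). By place in the large subunit, 3 of 4 stalk members, 3 of 7 members at the exit of the peptide tunnel and 1 of 6 members of the central protuberance were fitted higher, with medians of 0.02, -0.08 and -0.04. Without KP 5, 10 of 30, 10 of 18, 8 of 17 and 4 of 10 members of these classes were fitted higher, and by place 0 of 4, 2 of 7 and 3 of 6. None of these groups held a member past the threshold in limma. The classes were listed by protein and not by symbol, so their sizes differ from the 46 Mrpl and 29 Mrps symbols. They hold only members chosen by symbol, so a place in a class does not tell that a product is part of the ribosome.

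The spread between tumours was larger in KP than in KPG1 for most members. The SD of log2 CPM was higher in KP for 63 of 75 members (84.0%), against 73.5% of all genes. Without KP 5 these numbers were 54 members (72.0%) and 61.3% of all genes. The median SD was 0.25 in KP and 0.16 in KPG1 for the members and 0.39 and 0.26 for all genes. The members also had higher levels, with a median of 17.3 CPM per kb of transcript against 7.79 for all genes tested. Genes matched for level were not compared, so less spread than in genes of the same level is not shown. For 37 members (49.3%) all KPG1 libraries lay within the range of the KP libraries, which was so for 37% of all genes.

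The summed level of the 75 members was 1877, 1868, 2093, 2246 and 2030 CPM in KP 1 to KP 5 and 2012, 2070, 1969, 2067 and 2034 CPM in KPG1 1 to KPG1 5. On average this came to 2023 ± 158 CPM in KP and, with less spread, to 2030 ± 41.7 CPM in KPG1 (SD, n = 5 each), and the KPG1 sums lay inside the KP range. The ratio of the Mrpl sum to the Mrps sum, by symbol, ran from 1.96 to 2.13 in KP and from 1.87 to 2.03 in KPG1. In bulk RNA, fewer cells of a type and less RNA per cell cannot be told apart.

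Single tumours pulled the members in different directions. KP 1 was the lowest KP library for 27 members and the highest for 9, against 22.4% and 22.8% of all genes. KP 4 was the lowest for 6 and the highest for 29, against 15.7% and 15.2% of all genes. KP 5 was the lowest for 24 members and the highest for 14, against 30.7% and 30.8% of all genes. The interquartile range of the members' deviation from their own mean was widest in KP 5, at 0.43 on the log2 scale, where that of all genes was 0.78. Mrpl48, which encodes a protein of the central protuberance, was at 5.50 log2 CPM in KP 5, 4.16 to 4.74 log2 CPM in the other KP libraries and 4.21 to 4.84 log2 CPM in KPG1. Its copy Mrpl48-ps, with 98.1% identity over 636 bases and 3344 counts beside 9961 for Mrpl48, was also highest in KP 5 (12.5 CPM). Mrpl34, a large subunit protein, was at 2.52 log2 CPM in KP 5, 3.25 to 3.71 log2 CPM in the other KP libraries and 3.26 to 3.65 log2 CPM in KPG1. Both were chosen after their values were seen. KP 5 also had low summed proliferation and endothelial levels. KP 1 had low alveolar type 2 genes and a low leukocyte sum, which was mostly Lyz2. The part of these cell markers in the values of the members was not tested.

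**Figure D3:**
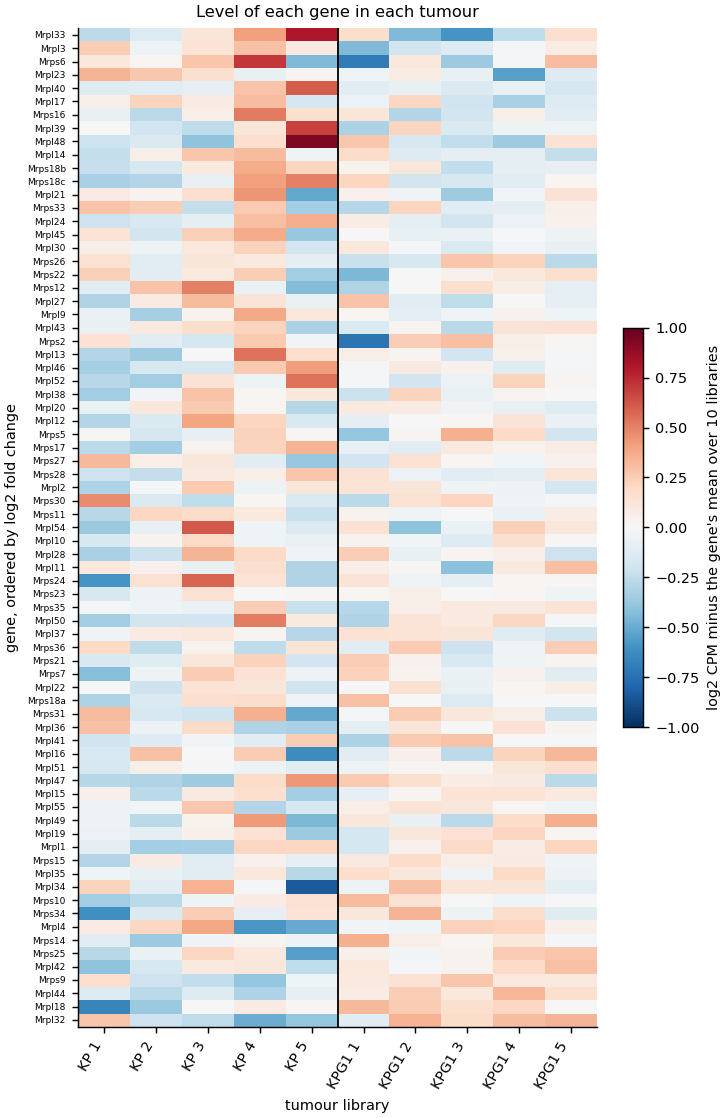
Level of each of the 75 members (rows, ordered by log2 fold change) in each library (columns, with the line between KP and KPG1), as log2 CPM minus the gene's mean over 10 libraries, from -1 (blue) to 1 (red). The median deviation of the KPG1 columns lies between -0.03 and 0.04, KP 4 is the highest KP library for 29 rows, and the strongest single cells lie in KP 5, for Mrpl48 and Mrpl34.

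The median level of the members differed from tumour to tumour, mainly in KP. Their median deviation from their own mean was -0.11 in KP 1, -0.12 in KP 2, 0.10 in KP 3, 0.15 in KP 4 and -0.09 in KP 5, and between -0.03 and 0.04 in KPG1, where that of all genes lay between -0.02 and 0.03 in every library. In KP 4 the lower quartile of the members was 0.01, so most of them lay above their own mean. After each group's mean was removed, the median Pearson correlation over the 2775 pairs of members was 0.13 across the 10 libraries, and 59.2% of pairs were above 0. The value was 0.13 for cytosolic ribosomal proteins and 0.15 for nuclear respiratory chain subunits. These correlations share the same libraries and depths and are given as a description. Pairs of all tested genes were not computed, so whether the members shift together more than other genes is not shown.

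Levels between genes were compared per length of the principal transcript. The median was 17.3 CPM per kb for the members, 19.6 for Mrpl genes and 13.2 for Mrps genes. It was 188.5 CPM per kb for cytosolic ribosomal proteins, 53.5 for nuclear respiratory chain subunits and 7.79 for all genes tested. The highest members were Mrpl33 at 86.5 ± 27.0, Mrps21 at 80.6 ± 9.11 and Mrpl52 at 63.2 ± 12.2 CPM per kb (SD, n = 10). The lowest were Mrpl17 at 5.04 ± 0.73, Mrps25 at 4.48 ± 0.73 and Mrps26 at 3.19 ± 0.43 CPM per kb (SD, n = 10). This is a 27.1-fold range, and the 90th percentile was 5.76-fold above the 10th. Only 3 of 74 pairs of neighbours in this order differed by more than the larger of their SDs: Mrps21 from Mrpl52, Mrpl24 from Mrpl14, and Mrps25 from Mrps26. The principal transcripts of the lowest 3 are long (7300, 6073 and 4278 bases), and those of the highest 3 are short (478, 488 and 418 bases), so these levels depend on the annotated ends.

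Mrpl33, a small protein with a bacterial counterpart, also had the most negative difference in the fit with all libraries. It was at 5.05, 5.18, 5.44, 5.72 and 6.13 log2 CPM in KP 1 to KP 5 and at 5.49, 4.87, 4.72, 5.06 and 5.48 log2 CPM in KPG1 1 to KPG1 5. The groups overlapped broadly, and the highest value was that of KP 5. Its log2 fold change was -0.38 (limma adjusted p 0.547, SE 0.23). Without KP 5 it was -0.24, less negative than the -0.32 of Mrpl3. Its identifier was matched to the annotation by symbol alone, and its interval overlaps Gm43809 on the same strand and Rbks on the other.

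**Figure D4:**
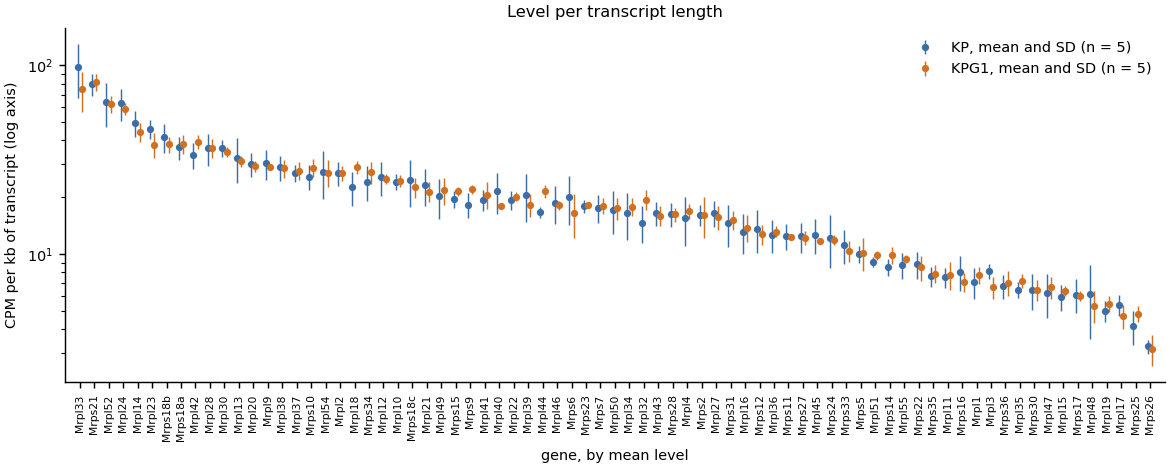
Level per transcript length (y axis, CPM per kb, log axis) of each member (x axis, by mean level) in KP (blue) and KPG1 (orange), as mean and SD of 5 tumours. Levels fall from 86.5 to 3.19 CPM per kb, and the points of the 2 groups lie close together for most members.

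Other genes needed for mitochondrial translation were followed as lists, and 0 of their genes passed the threshold in limma. Over all genes, 5.26% were higher and 6.31% lower at an unadjusted p under 0.05. The 6 mitoribosomal proteins under other symbols divided into 3 fitted higher and 3 lower, with 0 at an unadjusted p under 0.05. Ptcd3, a small subunit protein with RNA-binding repeats, had a log2 fold change of 0.16 (SE 0.14), which was 0.06 without KP 5 and -0.02 after a trend with length and GC content was removed. Of 16 translation factors, 12 were fitted higher and 4 lower, with a median of 0.16 and 0 at an unadjusted p under 0.05. Taco1, a translational activator of a cytochrome oxidase subunit, had 0.26 (SE 0.15), and the elongation factor Tufm had -0.29 (SE 0.17). Of 21 assembly factors, 8 were fitted higher and 13 lower, with 2 higher and 0 lower at an unadjusted p under 0.05. Of 19 mitochondrial aminoacyl-tRNA synthetases, 11 were fitted higher and 8 lower, with 1 higher, Cars2 (0.34, SE 0.13, limma adjusted p 0.360).

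The assembly factors with an unadjusted p under 0.05 were Fastkd2, which binds the large ribosomal RNA, and Tfb1m, which methylates the small ribosomal RNA. Fastkd2 was at 4.40, 4.01, 4.17, 4.51 and 4.21 log2 CPM in KP 1 to KP 5 and at 4.47, 4.66, 4.86, 4.89 and 4.67 log2 CPM in KPG1 1 to KPG1 5. Only KPG1 1 lay within the KP range. Fastkd2 had a log2 fold change of 0.44 (limma adjusted p 0.261, SE 0.14), and Tfb1m had 0.63 (limma adjusted p 0.317, SE 0.23). Mtg1, a GTPase of late assembly, had -0.32 (SE 0.16, limma adjusted p 0.465).

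Among 13 regulators of mitochondrial transcription and biogenesis, 9 were fitted higher and 4 lower, with 3 higher and 1 lower at an unadjusted p under 0.05. Myc, a transcription factor that acts on ribosome production among much else, was at 6.01, 5.91, 6.12, 6.42 and 5.99 log2 CPM in KP 1 to KP 5 and at 5.07, 5.53, 5.49, 5.55 and 5.71 log2 CPM in KPG1 1 to KPG1 5. The groups did not overlap. Myc differed by -0.62 on the log2 scale (SE 0.15), with an adjusted p of 0.142 in limma and 0.00494 in DESeq2. Ppargc1a, the coactivator PGC-1 alpha, had a log2 fold change of 0.84 (limma adjusted p 0.282, SE 0.28). Polrmt, the mitochondrial RNA polymerase, had 0.53 (SE 0.23, limma adjusted p 0.411), and Gabpb1, a subunit of the GABP complex, had 0.32 (SE 0.14, limma adjusted p 0.428).

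Neighbouring families gave a scale for these differences. Of 80 cytosolic ribosomal protein genes, 9 were fitted higher and 71 lower in KPG1. Their median log2 fold change was -0.26, and 0 passed the threshold in limma. At an unadjusted p under 0.05, 1 was higher and 22 were lower, against 5.26% and 6.31% of all genes. DESeq2 called 8 of the 80 lower, against 2.61% of all genes. The most negative was Rpl9 (-0.87, SE 0.16, limma adjusted p 0.0614). Without KP 5, 3 passed the threshold in limma, all lower: Rpl9, Rps13 and Rps25. In that fit 223 of all 16476 genes tested were called lower. Of 79 nuclear respiratory chain subunits, 44 were fitted higher and 35 lower, with 2 higher at an unadjusted p under 0.05, Cox7c (0.38, SE 0.15) and Ndufs1 (0.27, SE 0.11), and a median of 0.03. The difference between the families was not tested. Cytosolic ribosomal protein genes have many near-identical pseudogene copies, so their counts are uncertain.

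**Figure D5:**
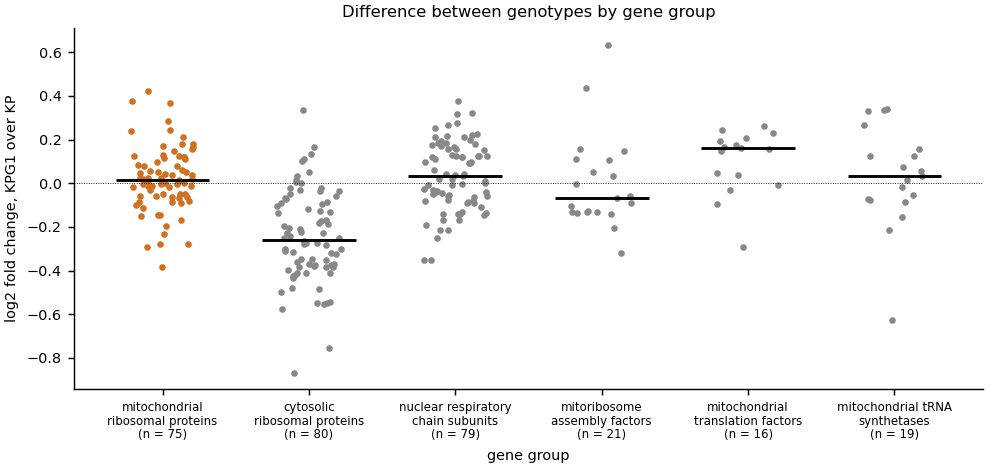
Log2 fold change (y axis, KPG1 over KP) of each tested gene (points) in 6 gene groups (x axis), with the median as a bar. The medians are 0.02 for mitochondrial ribosomal proteins, -0.26 for cytosolic ribosomal proteins, 0.03 for nuclear respiratory chain subunits, -0.07 for assembly factors, 0.16 for translation factors and 0.03 for tRNA synthetases.

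The RNAs that the mitochondrial ribosome contains and translates could not be followed. All 37 genes of mitochondrial DNA in the table, among them 13 protein genes and both ribosomal RNAs, were listed at 0 in every library, so they were not tested and no statement on them is made.

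Members also differ in how well their counts can be assigned. A protein-coding gene on the other strand started within 1000 bases of 22 members, 12 overlapped a gene on the same strand and 34 a gene on the opposite strand. A match to an annotated pseudogene, of at least 95% identity over at least 85 bases, was found for 19 members. Such a match need not be a copy of the member. Mrpl19 matched Zkscan7 over 122 bases and Mrpl35 matched Olfr1372-ps1 over 193 bases. Mrps36, with 1937 counts, stood beside Mrps36-ps2 and Mrps36-ps1 with 1338 and 1005 counts. Mrpl42 had 9690 counts beside 2803 for Gm6419, and Mrpl51 had 12914 beside 3932 for Gm14017. Of the 5 members with an unadjusted p under 0.05, only Mrpl32 had such a match, Gm6578, with 3 counts in all libraries.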

How the data were processed

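RNA of the CD45-negative fraction of 5 KP and 5 KPG1 tumours was sequenced from stranded mRNA libraries. Per the labels and the study's methods, the authors trimmed the reads with Cutadapt and aligned them to mm10 with HISAT2, and the submitters' processing notes list cutadapt 1.4.2 and featureCounts 1.4.4. The annotation release and strand setting are not given in the sources used here. The deposited values are raw counts per gene, and the joint table and the single library files held the same 390170 values. The authors' table of log2 values was not used. Details of the alleles that initiate tumours are not given.

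Members and gene lists were chosen with earlier results of these data known. Genes were filtered with filterByExpr of edgeR 4.0.16, scaled with TMM, and fitted with voom and limma 3.58.1 in R 4.3.3 with genotype as the only term. P-values were two-sided, adjusted by Benjamini-Hochberg over 16216 genes, with a threshold of 0.05. A filter on mean TPM of at least 20, which the study applied, was an alternative, as were edgeR, DESeq2 1.42.0, other scalings, library weights, a trend with length and GC content, a replicate block and leaving out each library. Log2 CPM used a prior count of 2. The fits were tested on simulated data. Floors are 3 counts, 0.0606 to 0.0925 CPM by library, and cover counting error only. Members were named where the unadjusted p was under 0.05, DESeq2 called them or the groups did not overlap, for the 3 highest and 3 lowest levels, and Mrpl12, Mrps12 and the Mrps18 genes by choice. Lists named up to 4 genes with the smallest p. Lists for leukocyte, endothelial, fibroblast, alveolar type 2, club and ciliated, erythroid and proliferation markers were also read. Of the tested genes on each, 3 of 8, 8 of 8, 7 of 7, 10 of 10, 2 of 6, 3 of 5 and 19 of 20 were fitted higher in KPG1, with 0 past the threshold in limma. Some of these counts rest on single libraries. Without KP 5, 16 of 20 proliferation genes and 6 of 8 endothelial genes were fitted higher. Without KP 1, 7 of 10 alveolar type 2 genes were. Positions came from GENCODE M21, which held 74 member identifiers, and pseudogene matches from blastn 2.17.0. Plots used matplotlib 3.10.9.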

Additional observations from a re-analysis of the deposited data

Results flagged for a closer look

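In groups of 5 libraries, a value whose gap to its nearest neighbour exceeds 0.71 of the group's range was singled out. Of 152 such groups searched, 4 had one, where chance gives about 1 in 20, or 7.6. In KPG1 1, Mrps2 was at 4.32 log2 CPM and the other KPG1 libraries at 5.06 to 5.35 (gap 0.725 of the range). In the same library Mrps22 was at 2.92 log2 CPM beside 3.37 to 3.52 (0.751), and Mrps35 at 4.73 beside 5.07 to 5.14 (0.836). In KPG1 3, Mrps9 was at 5.11 log2 CPM beside 4.93 to 4.97 (0.741). All 4 genes carry Mrps symbols, as do 29 of the 75 members, and the search found fewer than the 7.6 that chance gives.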

How the results depend on the processing

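The count of members past the threshold was 0 in each direction under every alternative but DESeq2, which gave 1 higher, and the cause was not tested. At an unadjusted p under 0.05, alternatives gave 1 to 4 members higher and 0 to 1 lower. With the TPM filter, 57 of the 75 members were tested. The members' median log2 fold change ran from -0.02 to 0.07. It was 0.07 after removal of a trend with length and GC content, where all genes had 0.01. The SD of the median member level within groups was 0.07. That SD describes single libraries and is not the error of a difference between groups. The SD of the median deviation was 0.13 in KP and 0.03 in KPG1. Over all genes, 10 higher and 18 lower became 125 and 423 with DESeq2, 51 and 177 with library weights, 23 and 79 at an adjusted p under 0.1, and 4 and 1 with the replicate block. The lower genes became 29 with edgeR, 31 without a filter and 29 with the TPM filter. Leaving out single libraries gave 3 to 71 higher and 1 to 223 lower genes, with both maxima without KP 5. Of the pathway lists DESeq2 called 1 gene lower, Myc. The adjusted p of Slc2a1, 0.0675 in limma and so past a threshold of 0.1, was 0.000255 with DESeq2 and 0.0171 with library weights, and ran from 0.0220, without KP 5, to 0.230 when single libraries were left out.

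Mrpl12 reversed, to 0.00288 with library totals, 0.000721 without a filter and 0.0692 with the length and GC trend, as did Mrps12 with that trend (0.0331) and Ptcd3 (-0.0195). Without single libraries Mrpl12 ran from -0.0859 to 0.0780, Mrps12 from -0.19 to 0.0529, Mrps18a from -0.0219 to 0.11 and Mrps18c from -0.20 to 0.00804. The members with a higher SD in KP, 63 of 75, were 54 without KP 5, an alternative chosen after seeing the data. Tumours with the same replicate number did not deviate together (correlations of -0.12, 0.08, 0.06, 0.06 and -0.16), so numbers were not taken as pairs. With the number as a replicate block, 0 members passed in either direction, 1 had an unadjusted p under 0.05 and the median was 0.01.

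With 5 tumours a group, the intervals of 9 members reached past 1.5-fold, so these intervals do not bound the difference within that size, and among the 9 those of Mrpl18, Mrpl32 and Mrpl44 leave out 0.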
